A study of Mus musculus with 6 samples.

Results

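The levels of 10 genes that set the threshold of apoptosis were measured in splenic dendritic cells: Bcl2, Bcl2l1, Mcl1, Bcl2a1b and Bcl2a1d, which favour survival, Bax and Bak1, which open the mitochondrial outer membrane, Bcl2l11 and Bid, which activate those effectors, and the death receptor gene Fas. They were chosen by gene symbol, with earlier results of these data known, and are 10 of the 23420 genes counted. All 10 passed the filter on low counts, which kept 14388 genes for the test.

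The BCL2 family controls the mitochondrial route of apoptosis. Survival proteins such as BCL-2, BCL-XL (from Bcl2l1), MCL-1 and A1 (from the Bcl2a1 genes) hold BAX and BAK in check and bind BH3-only proteins such as BIM (from Bcl2l11), and released BAX and BAK let cytochrome c out of the mitochondria. Fas, bound by Fas ligand, activates caspase-8, which can cut BID and so join the mitochondrial route. In dendritic cells both routes are known to limit lifespan, and BIM and Fas are known regulators of their number.

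Libraries were made from dendritic cells freshly isolated from the spleen of C57BL/6 mice, 3 labelled TBK1-DKO and 3 labelled WT (wild type). TBK1 is a kinase that relays signals of nucleic acid sensors. The labels do not spell out DKO or give the alleles, the way the cells were isolated or the number of animals behind a library, and they state an age of 8 weeks in one field and 10 weeks in another for all 6 samples. If the libraries of a group are not separate animals, the p-values below reflect the spread of these libraries alone, and that spread may be technical.

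The libraries held 45018389 to 47349648 gene reads in TBK1-DKO and 31077585 to 36145508 in WT. Library TBK1-DKO 2 stood apart from the other TBK1-DKO libraries (chi-square per degree of freedom 38.1 and 38.2, against 2.47 between TBK1-DKO 1 and 3), and WT 1 stood apart from the other WT libraries (13.2 and 14.8, against 2.65 between WT 2 and 3). Tbk1 itself had 83.9, 79.2 and 83.8 CPM (counts scaled to 1000000 reads per library) in TBK1-DKO 1, 2 and 3, against 90.7, 80.8 and 83.7 CPM in WT 1, 2 and 3, a log2 difference of -0.05 (SE 0.06, adjusted p = 0.63). The count per gene does not separate exons, so it would not show a deletion of single exons, and the groups are called here by their labels. All 16 dendritic cell markers were tested and summed to 13827 to 15604 CPM in TBK1-DKO and 14544 to 16000 CPM in WT.

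Markers of other cells were present and differed between the groups. In TBK1-DKO, 15 of 16 tested neutrophil markers rose (summed level 6612 to 7551 CPM in TBK1-DKO, 2899 to 3187 CPM in WT), as did all 13 tested erythroid markers (4193 to 4405 CPM, against 2348 to 2633 CPM in WT), 8 of 10 plasma cell markers (2192 to 2367 CPM, against 1427 to 1584 CPM in WT) and 17 of 18 cell cycle genes (3191 to 3526 CPM, against 2008 to 2272 CPM in WT). In TBK1-DKO, 10 of 13 macrophage and monocyte markers fell and 1 rose (5982 to 6394 CPM, against 8482 to 9071 CPM in WT), 9 of 10 NK cell markers fell (250.1 to 269 CPM, against 344 to 383 CPM in WT), 7 of 12 T cell markers fell (548 to 572 CPM, against 633 to 656 CPM in WT) and 6 of 12 B cell markers fell (4187 to 4311 CPM, against 4875 to 5022 CPM in WT). In the macrophage and monocyte list, the gene that rose was the monocyte marker Ly6c2 (log2 0.22). The monocyte marker Ccr2 (-0.13) and the macrophage marker Mertk (-0.25) did not pass at an adjusted p under 0.05. Of the dendritic cell markers, 2 rose and 5 fell. The haemoglobin genes Hbb-b1, Hbb-b2 and Hba-a2 and the NK receptor gene Klra8 were at 0 reads in all libraries. Only 17 of the 21 listed erythroid symbols were among the genes counted, and HTSeq leaves out reads that align to several places. The 0 reads are therefore not taken as absence of haemoglobin RNA, and their cause was not tested. The part of these other cells in the results below was not tested, and in such bulk samples fewer cells of a type and less RNA per cell cannot be told apart.

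The transcripts of Fas, Bcl2l1, Bcl2a1d, Bcl2a1b and Bcl2l11 were more abundant in TBK1-DKO than in WT, and that of Bcl2 was less abundant. With an adjusted p under 0.05 in edgeR's quasi-likelihood test (Benjamini-Hochberg adjustment over the 14388 genes), 5 of the 10 genes rose, 1 fell and 4 did not pass. Over all genes tested, 13.7% rose and 9.9% fell, 23.6% in all. Those calls were 1978 rises and 1424 falls, and with trends of transcript length and GC content taken out they were 2451 rises and 2655 falls. The TBK1-DKO and WT libraries did not overlap for 8 of the 10 genes, 6 of them higher in TBK1-DKO, whereas 41.1% of all genes tested did not overlap. The median log2 fold change was 0.22 over the 10 genes, against 0.0015 over all genes tested. Because the 10 genes were chosen with earlier results of these data known, these comparisons with all genes are a description only. By role, 3 of the 5 survival genes rose, 1 fell and 1 did not pass; neither effector passed; 1 of the 2 activators rose; and the death receptor gene rose.

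**Figure D1:**
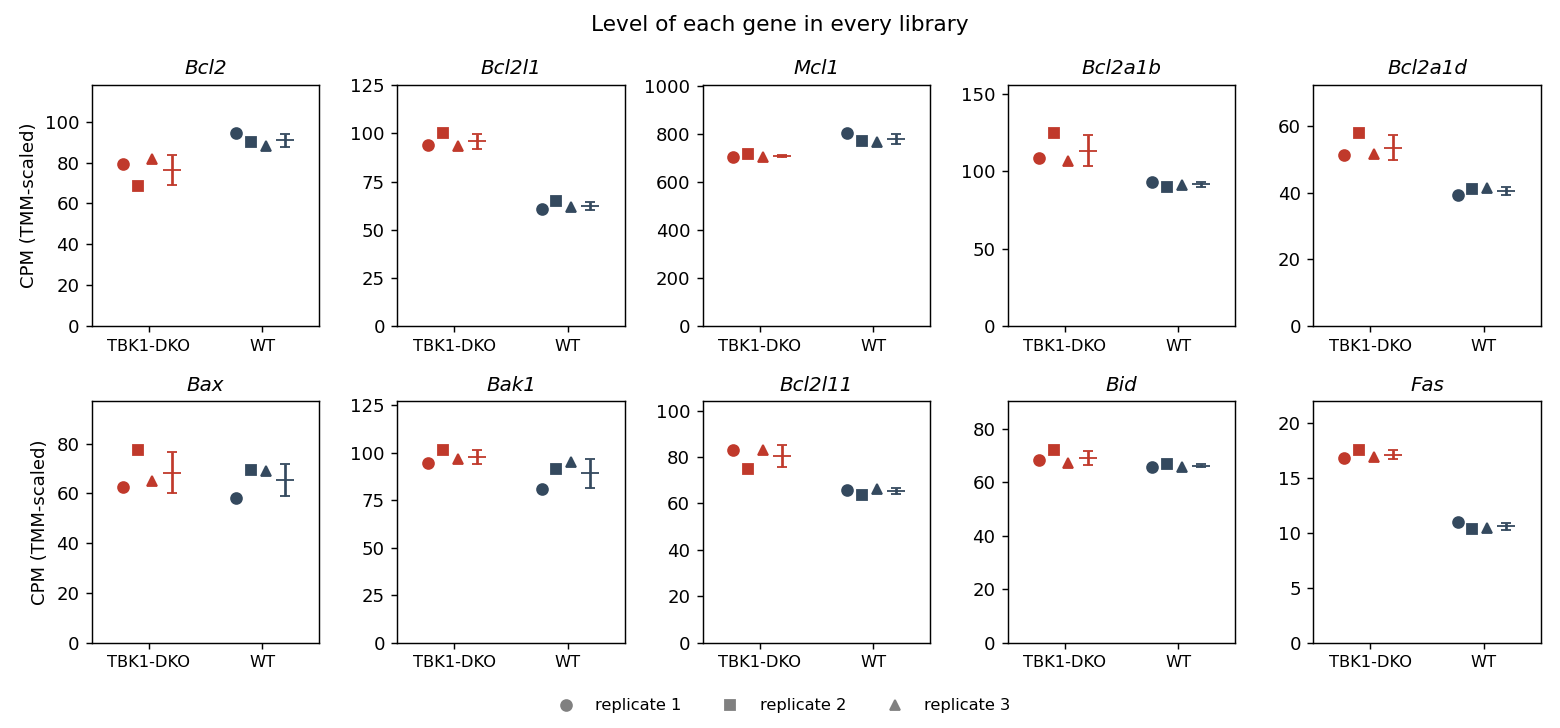
Scaled level (CPM, vertical axis from 0) of each of the 10 genes in the 3 TBK1-DKO libraries (left) and the 3 WT libraries (right); circle, square and triangle mark replicates 1, 2 and 3, and the bar beside the points is the mean ± SD. For Bcl2l1 and Fas the groups are well apart, with TBK1-DKO at 93.3 to 100.1 and 16.8 to 17.5 CPM against WT at 60.6 to 64.8 and 10.4 to 10.9 CPM, whereas Bax overlaps.

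Bcl2l1 (chr2:152780668-152831728, minus strand, GRCm38) encodes BCL-XL, a survival protein that erythroid precursors and activated lymphocytes depend on. It reached 94.1, 100.1 and 93.3 CPM in TBK1-DKO 1, 2 and 3, against 60.6, 64.8 and 61.8 CPM in WT 1, 2 and 3. Every TBK1-DKO library was above every WT library, by far more than either group's spread. The level was 1.54 times as high in TBK1-DKO (95.8 ± 3.71 against 62.4 ± 2.15 CPM, SD, n = 3 each; log2 0.62, 95% interval 0.49 to 0.75; adjusted p = 4.2e-05), and Bcl2l1 ranked 252 of 14388 genes by p. The read numbers behind these values were 4200 to 4560 in TBK1-DKO and 1906 to 2334 in WT. The rise passed in every alternative, with log2 0.54 to 0.64. The 13 erythroid markers given above also rose.

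Bcl2a1b and Bcl2a1d encode A1, a short-lived survival protein induced by NF-kB and abundant in neutrophils and other myeloid cells. In the mouse the gene was copied several times on chromosome 9, and the copies are so alike that reads are hard to assign. The coding sequences of Bcl2a1a, Bcl2a1b and Bcl2a1d each have 516 bases, of which 12 positions differ among the 3 copies: Bcl2a1b and Bcl2a1d are 98.84% identical, Bcl2a1a and Bcl2a1d 98.64%, and Bcl2a1a and Bcl2a1b 97.87%. Of the 50-base stretches of their transcripts, 57.6% for Bcl2a1b, 79.5% for Bcl2a1d and 69.0% for Bcl2a1a occur unaltered in another copy, and HTSeq leaves out reads that align to several places. Such reads were 6.44% to 6.99% of the counted records in TBK1-DKO and 5.43% to 5.74% in WT. The first 90 coding bases (GENCODE M21, GRCm38) are shown because they hold 6 of the differing positions, in capitals, which are what tells the copies apart.
Bcl2a1a coding bases 1 to 90: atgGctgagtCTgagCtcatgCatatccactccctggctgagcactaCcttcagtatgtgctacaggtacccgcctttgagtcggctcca
Bcl2a1b coding bases 1 to 90: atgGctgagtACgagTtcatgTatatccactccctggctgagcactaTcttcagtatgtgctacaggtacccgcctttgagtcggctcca
Bcl2a1d coding bases 1 to 90: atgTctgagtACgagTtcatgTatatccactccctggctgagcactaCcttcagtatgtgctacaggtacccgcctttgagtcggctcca

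Bcl2a1b (chr9:89199209-89207827, plus strand) measured 108.6, 124.7 and 106.5 CPM in TBK1-DKO 1, 2 and 3, against 93.4, 90.1 and 91.1 CPM in WT 1, 2 and 3. TBK1-DKO 2 was the highest library, and no TBK1-DKO library was as low as a WT library. Bcl2a1b rose by log2 0.31 (SE 0.07, adjusted p = 0.0089), a call that was lost without WT 2 (0.28, adjusted p = 0.067) or without WT 3 (0.29, adjusted p = 0.054). Its exons share 401 bases with Gm29094 on the same strand.

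Bcl2a1d (chr9:88723285-88731914, minus strand) measured 51.3, 57.8 and 51.5 CPM in TBK1-DKO 1, 2 and 3, against 39.3, 41.2 and 41.3 CPM in WT 1, 2 and 3. The groups did not overlap here either. Bcl2a1d rose by log2 0.40 (SE 0.07, adjusted p = 0.0016) and passed in every alternative. The third copy, Bcl2a1a, averaged 34.3 ± 3.004 CPM in TBK1-DKO and 31.9 ± 0.95 CPM in WT (SD, n = 3 each) and did not pass (log2 0.11, SE 0.07, adjusted p = 0.35). Bcl2a1c had 3 to 9 reads in TBK1-DKO and 2 to 4 in WT and was not tested.

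Summed over the 4 copies, the level was 193, 221 and 190.2 CPM in TBK1-DKO 1, 2 and 3, against 164, 163 and 165 CPM in WT 1, 2 and 3. All TBK1-DKO libraries lay above all WT libraries, and the sum rose by log2 0.29 (adjusted p = 0.0094). The sum still lacks the reads that fit several copies. Within that sum, Bcl2a1d took 26.6%, 26.2% and 27.1% of the reads in TBK1-DKO 1, 2 and 3, against 23.9%, 25.3% and 24.95% in WT 1, 2 and 3. Bcl2a1a took 17.1%, 17.1% and 16.9% in TBK1-DKO 1, 2 and 3, against 19.1%, 19.3% and 19.9% in WT 1, 2 and 3. Both shares separated the groups (exact permutation test, two-sided p = 0.1 each, the smallest that 3 against 3 libraries allow), and the share of Bcl2a1b did not (56.3% ± 0.30 in TBK1-DKO, 55.8% ± 1.002 in WT, SD, n = 3 each; exact permutation p = 0.5). In the same libraries 15 of 16 neutrophil markers rose, as given above. Their rises ran from log2 0.17 for the receptor gene Csf3r to 1.95 for the granule gene Mpo. The receptor gene Cxcr2 (0.15) did not pass.

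The 250 bases upstream of the RefSeq start (GRCm38.p6) were searched on both strands for 4 short motifs, and the stretches around the match in the 3 copies are shown because they let the promoters of these near-identical copies be compared. Capitals mark the match to the Ets-like motif GAGGAAGT, which 2.4% of the 32851 promoters searched contain. Bcl2a1a and Bcl2a1b are the same over the bases shown.
Bcl2a1a promoter, chr9:88956776-88956855, plus strand: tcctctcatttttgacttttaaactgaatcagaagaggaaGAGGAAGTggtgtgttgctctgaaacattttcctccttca
Bcl2a1b promoter, chr9:89199085-89199164, plus strand: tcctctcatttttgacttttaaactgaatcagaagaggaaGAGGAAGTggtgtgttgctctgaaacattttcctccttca
Bcl2a1d promoter, chr9:88731915-88731994, minus strand: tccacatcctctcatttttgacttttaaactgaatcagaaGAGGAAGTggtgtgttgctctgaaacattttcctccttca

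The Ets-like motif also matched in the promoter of Bak1. The STAT-like motif TTCNNNGAA (7.0% of promoters) matched in Fas, shown with that gene below, and the NF-kB-like motif GGNNTTTCC (4.9% of promoters) matched once in Mcl1 and at 2 places in 1 of the 3 RefSeq promoters of Bcl2l1. The IRF-like motif GAAANNGAA (7.1% of promoters) matched in none of the promoters of the 10 genes, and Bcl2, Bcl2l11, Bid and Bax had no match to any of the 4. A match is a run of letters, not a bound site.

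Mcl1 (chr3:95658788-95663176, plus strand) encodes MCL-1, a short-lived survival protein. Its level was 705, 715 and 707 CPM in TBK1-DKO 1, 2 and 3, against 804, 772 and 766 CPM in WT 1, 2 and 3. All TBK1-DKO libraries were lower, but the log2 difference of -0.14 (SE 0.06) did not pass (adjusted p = 0.11). It passed without TBK1-DKO 2 (-0.17, adjusted p = 0.017), without TBK1-DKO 2 and WT 1 (-0.14, adjusted p = 9.6e-06) and with length and GC offsets (-0.17, adjusted p = 0.0019). These runs called 30.2%, 47.7% and 35.5% of all genes tested, in that order, against 23.6% in the main test. The run without TBK1-DKO 2 and WT 1 kept only the libraries most alike within each group.

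Bcl2 (chr1:106538178-106714274, minus strand), the founding survival gene of the family, had 79.1, 68.3 and 82.0 CPM in TBK1-DKO 1, 2 and 3, against 94.4, 89.9 and 88.1 CPM in WT 1, 2 and 3. TBK1-DKO 2 was the lowest library, and no TBK1-DKO library reached a WT library. Bcl2 fell by 0.25 on the log2 scale (SE 0.07, adjusted p = 0.034). The call was lost without TBK1-DKO 1 (adjusted p = 0.060), without WT 1 (0.093), without WT 2 (0.071) and without WT 3 (0.051). Without both TBK1-DKO 2 and WT 1 the difference was smaller, -0.16 (adjusted p = 1.6e-04), in a run that called 47.7% of all genes tested. Its exons overlap those of D630008O14Rik on the opposite strand by 558 bases, and the labels do not say whether strand was used in counting. In the same libraries 7 of 12 T cell, 6 of 12 B cell and 9 of 10 NK cell markers fell, as given above.

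Bcl2l11 (chr2:128126038-128162547, plus strand) encodes BIM, a BH3-only protein that removes leukocytes deprived of survival signals. It had 83.0, 74.8 and 83.2 CPM in TBK1-DKO 1, 2 and 3, against 65.7, 63.7 and 66.2 CPM in WT 1, 2 and 3. The groups did not overlap, with TBK1-DKO 2 the lowest of its group. Bcl2l11 rose by log2 0.30 (SE 0.06, adjusted p = 0.0050) and passed in every alternative (log2 0.27 to 0.34).

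Bid (chr6:120891930-120916853, minus strand), whose product is cut by caspase-8 and carries the death receptor signal to mitochondria, had 68.4, 72.2 and 67.0 CPM in TBK1-DKO 1, 2 and 3, against 65.8, 66.9 and 65.8 CPM in WT 1, 2 and 3. The TBK1-DKO libraries were narrowly the higher ones. The log2 difference of 0.07 (SE 0.05, 95% interval -0.06 to 0.19) did not pass (adjusted p = 0.44).

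The effectors gave overlapping libraries, and 0 of 2 passed by edgeR, DESeq2 or limma-voom or had an unadjusted edgeR p under 0.05. Bax (chr7:45461697-45466898, minus strand) had 62.4, 77.5 and 65.1 CPM in TBK1-DKO 1, 2 and 3, against 58.0, 69.4 and 68.9 CPM in WT 1, 2 and 3. Its log2 difference was 0.06 (SE 0.10, 95% interval -0.15 to 0.28, adjusted p = 0.69). That difference turned negative without TBK1-DKO 2 (-0.06), without WT 1 (-0.02) and with length and GC offsets (-0.07). Without both TBK1-DKO 2 and WT 1 it was -0.13 (adjusted p = 0.0040), in a run that called 47.7% of all genes tested. No direction is therefore given for Bax. Bak1 (chr17:27019810-27029009, minus strand) had 94.6, 101.7 and 96.9 CPM in TBK1-DKO 1, 2 and 3, against 80.8, 91.5 and 95.1 CPM in WT 1, 2 and 3. The lowest value was that of WT 1, and the log2 difference of 0.13 (SE 0.07, 95% interval -0.02 to 0.29) did not pass (adjusted p = 0.21). Bax shares 192 exon bases with Gm45808 on the same strand, and Bak1 shares 614 with Ggnbp1 on the opposite strand.

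Fas (chr19:34290666-34327772, plus strand) encodes the receptor of Fas ligand, through which T cells can kill dendritic cells. Its level was 16.8, 17.5 and 16.9 CPM in TBK1-DKO 1, 2 and 3, against 10.9, 10.4 and 10.4 CPM in WT 1, 2 and 3. The groups were far apart, and the spread within each was under 1 CPM. Fas was 1.62 times as high in TBK1-DKO (17.1 ± 0.40 against 10.6 ± 0.33 CPM, SD, n = 3 each; log2 0.69, 95% interval 0.53 to 0.85; adjusted p = 8.5e-05), ranked 364 of 14388 genes by p, and passed in every alternative (log2 0.65 to 0.72). The read numbers were 761 to 799 in TBK1-DKO and 344 to 373 in WT. Its promoter stretch is shown for the single motif match, STAT-like, in capitals (GRCm38.p6).
Fas promoter, chr19:34290526-34290605, plus strand: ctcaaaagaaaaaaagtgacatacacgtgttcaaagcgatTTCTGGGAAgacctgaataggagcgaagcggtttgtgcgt

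**Figure D2:**
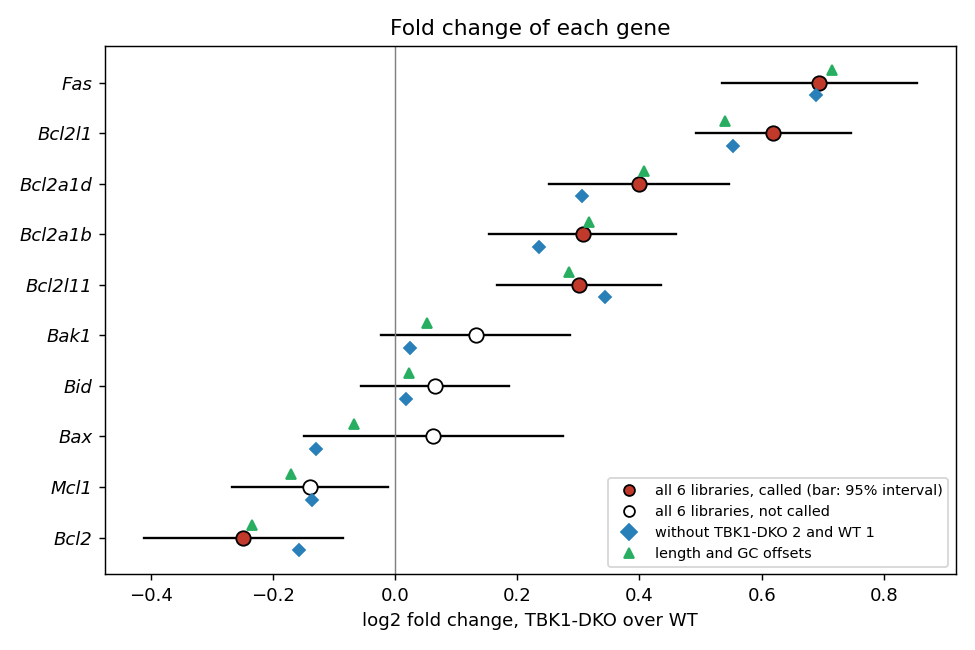
Log2 fold change of TBK1-DKO over WT for each of the 10 genes (horizontal axis) with its 95% interval; filled circles passed at an adjusted p under 0.05 and open circles did not, diamonds are the values without TBK1-DKO 2 and WT 1, and triangles are the values with length and GC offsets. Fas (0.69) and Bcl2l1 (0.62) lie farthest to the right, and Bax lies on either side of 0 depending on the libraries.

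Ratios of reads within a library need no scaling, so 6 of them were formed, 4 of an activator or effector over a survival gene and 2 between survival genes. Of the 6, 5 contain Bcl2l1, so they are not independent, and for each the groups did not overlap (exact permutation test, two-sided p = 0.1, Benjamini-Hochberg adjusted 0.1 over the 6 ratios, the smallest p that 3 against 3 libraries allow). Bcl2l1 by itself did not overlap either, nor did 41.1% of all genes tested. Ratios of other gene pairs were not counted, so no share is given to set beside the 6. Bcl2l11 over Bcl2l1 was 0.882, 0.747 and 0.891 in TBK1-DKO 1, 2 and 3, against 1.08, 0.983 and 1.07 in WT 1, 2 and 3 (log2 difference -0.32). Bcl2l11 rose by itself, but its ratio to Bcl2l1 was lower in each TBK1-DKO library than in any WT library. Bcl2l11 over Mcl1 went the other way, at 0.118, 0.105 and 0.118 in TBK1-DKO 1, 2 and 3, against 0.0817, 0.0825 and 0.0864 in WT 1, 2 and 3 (log2 difference 0.44). The direction of the ratio thus differed with the survival gene in the denominator.

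Bax over Bcl2l1 averaged 0.712 ± 0.0569 in TBK1-DKO and 1.05 ± 0.0822 in WT (SD, n = 3 each; log2 difference -0.56). Bak1 over Bcl2l1 was 1.005, 1.016 and 1.038 in TBK1-DKO 1, 2 and 3, against 1.33, 1.41 and 1.54 in WT 1, 2 and 3 (log2 difference -0.48). Among the survival genes, Bcl2l1 over Mcl1 averaged 0.135 ± 0.00421 in TBK1-DKO and 0.0800 ± 0.00432 in WT (log2 difference 0.76), and Bcl2l1 over Bcl2 averaged 1.26 ± 0.176 in TBK1-DKO and 0.688 ± 0.0408 in WT (log2 difference 0.87). Reads of Bcl2l1 thus exceeded those of Bcl2 in each TBK1-DKO library and were fewer in each WT library; the genes differ in length, so these read ratios are not ratios of molecules. Every direction was kept with each library left out, which groups that do not overlap make certain. Thinning TBK1-DKO reads to the WT depth also kept every direction, but it lowers both genes of a ratio by the same fraction. Neither run is therefore a further check of the ratios, and length and GC offsets were not applied to them.

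**Figure D3:**
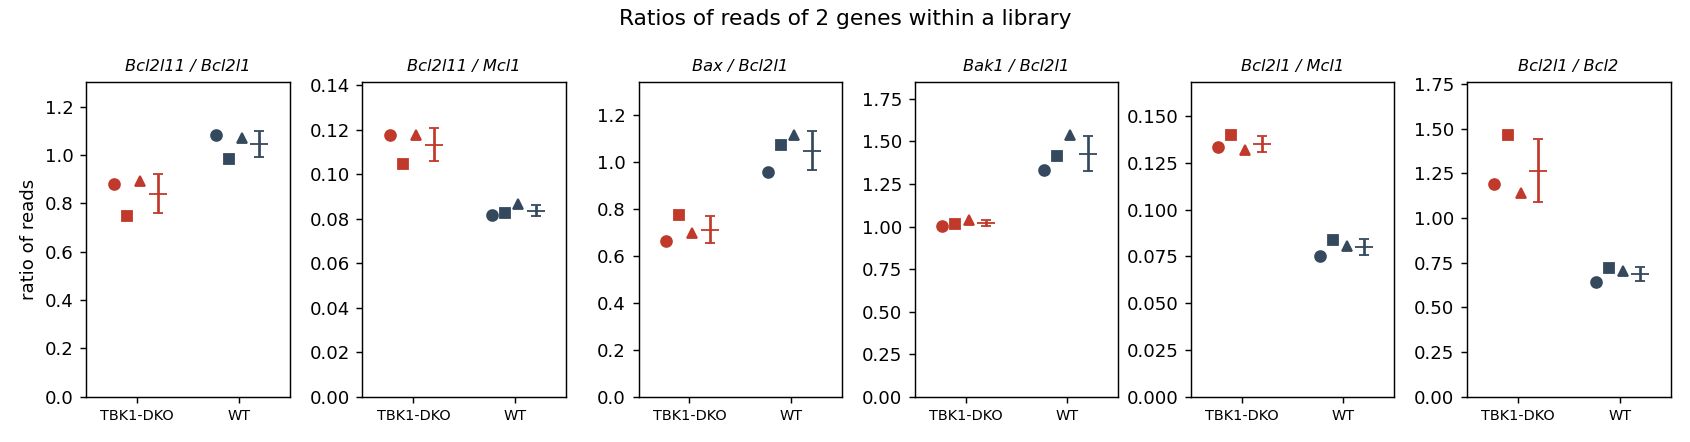
Ratio of the reads of 2 genes within each library (vertical axis from 0, no unit), with TBK1-DKO left of WT in each panel; circle, square and triangle mark replicates 1, 2 and 3 and the bar is the mean ± SD. The ratios to Bcl2l1 (Bcl2l11, Bax, Bak1) are lower in TBK1-DKO, and the ratios of Bcl2l1 to Mcl1 and Bcl2 and of Bcl2l11 to Mcl1 are higher.

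To set the genes beside each other, CPM were divided by the length of the annotated exons in kilobases (CPM per kb, GENCODE M21). Mcl1 was the most abundant in both groups, at 207 ± 1.596 CPM per kb in TBK1-DKO and 228 ± 6.03 in WT (SD, n = 3 each), followed by Bcl2a1b at 139 ± 12.2 in TBK1-DKO and 112 ± 2.07 in WT and by Bax at 78.8 ± 9.30 in TBK1-DKO and 75.5 ± 7.45 in WT. Bcl2a1d, Bak1 and Bid followed in that order in both groups (62.0, 40.9 and 31.6 CPM per kb in TBK1-DKO, 47.0, 37.4 and 30.2 in WT), and Bcl2l1 came seventh, at 24.7 ± 0.955 in TBK1-DKO and 16.1 ± 0.554 in WT. The last places differed between the groups: Bcl2l11 (11.6), Fas (9.51) and Bcl2 (8.35) in TBK1-DKO, and Bcl2 (9.92), Bcl2l11 (9.45) and Fas (5.88) in WT. In WT, Bcl2 and Bcl2l11 were within their mean ± SD of each other; no other neighbours in either order were. As a share of the summed CPM per kb of the 10 genes, Mcl1 held 33.9% ± 1.33 in TBK1-DKO and 39.96% ± 1.32 in WT, and Bcl2l1 held 4.02% ± 0.0442 in TBK1-DKO and 2.81% ± 0.0834 in WT. The values and places of the Bcl2a1 copies are uncertain, since reads that fit several copies are left out and the length was not corrected for this.

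Within each group the genes varied together in part. TBK1-DKO 2 had the highest value of its group for 8 of the 10 genes and the lowest for Bcl2 and Bcl2l11. WT 1 had the lowest value of its group for Bcl2l1, Bcl2a1d, Bax and Bak1, and the highest for Bcl2, Mcl1, Bcl2a1b and Fas. TBK1-DKO 2 and WT 1 also stood apart from the other libraries of their groups over all genes, as given above. How many of all genes were highest or lowest in them was not counted, so this pattern is not taken as particular to the 10 genes. Across the 6 libraries, the most alike pairs, by the root mean square difference of log2 CPM after centring, were Bcl2a1b with Bcl2a1d (0.063), Bcl2l1 with Fas (0.065) and Bax with Bak1 (0.079). Among 10712 genes averaging at least 5 CPM, those close to Bcl2l1 included Cenpn, a centromere protein gene (0.024 away; log2 0.62), and 1190002F15Rik (0.024; log2 0.59). The closest to Fas were Gpsm2, which orients the mitotic spindle (0.017; log2 0.69), Lpar6, a lysophosphatidic acid receptor (0.025; log2 0.67), and Gypc, a red cell membrane protein gene (0.027; log2 0.74). These distances are a description over 6 libraries of 2 groups.

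Further genes of apoptosis were read from 4 lists. Of the 59 tested genes in these lists, 5 rose and 4 fell, 15.3% in all, where 23.6% of all genes tested were called, and their median log2 fold change was 0.03. The 9 calls became 16 without TBK1-DKO 2 and 5 without WT 2. Among the 12 tested other members of the BCL2 family 0 were called by edgeR, DESeq2 or limma-voom (median log2 0.12), and 5 had an unadjusted edgeR p under 0.05. The largest difference was that of Bok, with 15 to 25 reads in TBK1-DKO and 6 to 9 in WT (log2 0.89, adjusted p = 0.11), named here after its values were seen. The BH3-only genes Bbc3 (PUMA), Bmf and Pmaip1 (NOXA) had log2 differences of 0.29 (10.96 ± 1.37 CPM in TBK1-DKO, 8.92 ± 0.71 CPM in WT; adjusted p = 0.080), -0.14 (60.5 ± 1.602 CPM in TBK1-DKO, 66.6 ± 0.64 CPM in WT; adjusted p = 0.085) and -0.18 (134 ± 3.71 CPM in TBK1-DKO, 153 ± 15.6 CPM in WT; adjusted p = 0.11).

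Of 16 death receptor signalling genes, 1 rose, 3 fell and 12 did not pass (median log2 -0.01). The death receptor gene Tnfrsf10b, whose product binds TRAIL, rose by log2 0.41 (10.3 ± 0.85 CPM in TBK1-DKO, 7.79 ± 0.28 CPM in WT; adjusted p = 0.0087). Fasl, the ligand of Fas and a product of activated T and NK cells, fell by 0.39 on the log2 scale (4.24 ± 0.15 CPM in TBK1-DKO, 5.55 ± 0.14 CPM in WT; adjusted p = 0.014), and Tnfsf10 (TRAIL) fell by 0.47 (15.1 ± 1.80 CPM in TBK1-DKO, 21.0 ± 2.61 CPM in WT; adjusted p = 0.012). Fas rose and its ligand fell in the same libraries, in which 9 of 10 NK cell and 7 of 12 T cell markers fell. Casp8, which starts the caspase cascade downstream of Fas, fell by 0.18 (102.5 ± 2.33 CPM in TBK1-DKO, 116 ± 6.26 CPM in WT; adjusted p = 0.0496), a call lost without any 1 library except TBK1-DKO 2. Cflar, an inhibitor of caspase-8, differed by -0.02. The call of Tnfrsf10b was lost without WT 2 (adjusted p = 0.055), and that of Fasl without TBK1-DKO 3 (0.060) or WT 2 (0.053).

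Of 17 genes of the apoptosome and the caspases, Htra2, a mitochondrial protease that inhibits IAP proteins, rose (log2 0.32; 51.4 ± 2.59 CPM in TBK1-DKO, 41.3 ± 0.89 CPM in WT; adjusted p = 0.0037), and Casp6, an executioner caspase, fell by 0.26 (24.1 ± 1.12 CPM in TBK1-DKO, 28.8 ± 1.39 CPM in WT; adjusted p = 0.020). The other 15 did not pass, among them Casp9 and Apaf1 with log2 differences of 0.00 and 0.13. The call of Casp6 was lost without TBK1-DKO 1, TBK1-DKO 3, WT 2 or WT 3 (adjusted p 0.056 to 0.090). Of 14 p53 pathway genes, 3 rose and 11 did not pass: Gtse1, a cell cycle protein that restrains p53 (log2 0.91; 27.8 ± 0.61 CPM in TBK1-DKO, 14.7 ± 0.68 CPM in WT), Cdkn1a, the p21 inhibitor of cell division (0.48; 23.3 ± 1.62 CPM in TBK1-DKO, 16.7 ± 2.12 CPM in WT; adjusted p = 0.0054), and Gadd45a, a stress-induced gene (0.39; 26.1 ± 2.76 CPM in TBK1-DKO, 19.99 ± 0.15 CPM in WT; adjusted p = 0.0072). Trp53 and Mdm2 differed by log2 0.11 and 0.01. The 17 of 18 cell cycle genes that rose moved with Gtse1.

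**Figure D4:**
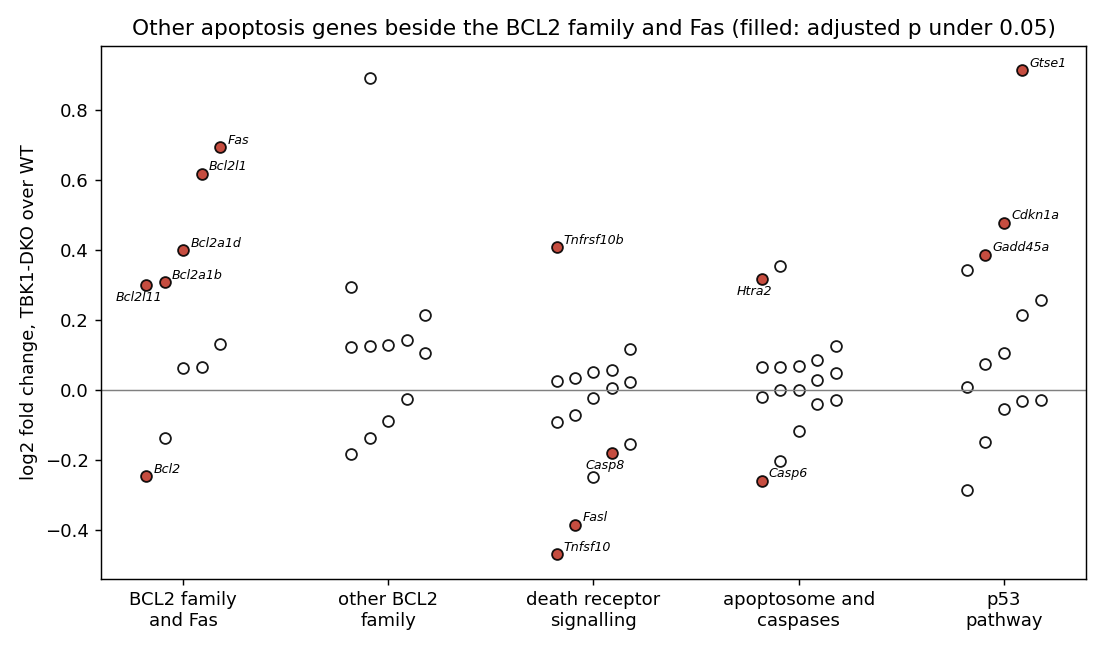
Log2 fold change of TBK1-DKO over WT (vertical axis) for each tested gene of the BCL2 family and Fas and of 4 further lists of apoptosis genes; filled points, labelled, passed at an adjusted p under 0.05. In the other BCL2 family genes no point is filled, and in the death receptor list 3 of the 4 filled points lie below 0.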

How the data were processed

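RNA sequencing of 3 TBK1-DKO and 3 WT samples was deposited as raw whole-number read counts per gene symbol, 1 table per sample. The mm10 build, TopHat, TopHat2, HTSeq and DESeq2 are named per the submitters' processing notes; their versions, the annotation and the strand setting were not given in the sources used here. Trizol total RNA and standard Illumina libraries were used, per the labels' protocols. Summary rows that name no gene (9.96% to 10.7% of records in TBK1-DKO, 8.20% to 8.67% in WT) were left out.

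Counts were tested with edgeR 4.0.16 (R 4.3.3): filterByExpr with a minimum count of 10, TMM factors (0.996 to 1.012), robust dispersions, the quasi-likelihood F test and Benjamini-Hochberg adjustment over 14388 genes, called under 0.05. Standard errors came from the F statistic. CPM are TMM-scaled and given as mean ± SD. Transcript length and GC content were known for 99.2% of tested genes. The pipeline was checked on simulated counts. Alternatives used DESeq2 1.42.0, limma-voom (limma 3.58.1), other size factors, filters, thresholds and depths, removal of haemoglobin, immunoglobulin and neutrophil genes, and libraries left out.

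The genes, lists and alternatives were chosen with earlier results of these data known. Named genes were the 10 genes, called genes of the apoptosis lists, a preset group of apoptosis genes and, for Bcl2l1 and Fas, the 3 closest patterns; some of the genes this rule gives are not reported here. Coordinates are 1-based, GRCm38 (GENCODE M21), and promoters are RefSeq's (GRCm38.p6). Figures were drawn with matplotlib 3.10.9.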

Additional observations from a re-analysis of the deposited data

How the results depend on the processing

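Bcl2l1, Bcl2a1d, Bcl2l11 and Fas passed with the same direction in every alternative run, and 6 of the 10 genes were called with DESeq2, limma-voom, RLE or upper-quartile factors, other filters on low counts, thinned depth and removal of haemoglobin, immunoglobulin and neutrophil genes. The removal of haemoglobin, immunoglobulin and neutrophil genes left 14368 genes tested and did not change the reads of the 10 genes. It is therefore no check on what other cells add to the levels of the 10 genes. With 1 library left out, 4 to 7 of the 10 were called. The 1 fall, Bcl2, was less steady: with a library left out, 0 to 2 genes fell; without TBK1-DKO 2 and WT 1, 3 fell; with length and GC offsets, 2 fell; and at an adjusted p under 0.01, 0 fell. The cause was not tested. Bax changed direction without TBK1-DKO 2 (-0.060), without WT 1 (-0.017), without both (-0.13) and with length and GC offsets (-0.067), and with any 1 library left out its log2 difference was -0.060 to 0.13.

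Of the other apoptosis genes, 9 were called, against 23 without TBK1-DKO 2 and WT 1, 19 with length and GC offsets, 5 at an adjusted p under 0.01 and 5 to 16 with 1 library left out. With the replicate number as a block, 16 were called and 6 of the 10 genes were. The deviations of same-numbered libraries correlated at 0.417, 0.370 and -0.199, so the numbers were not taken to pair the samples. Over all genes, 3402 were called, against 4086 with the block, 6897 without TBK1-DKO 2 and WT 1, 5106 with length and GC offsets and 1996 at an adjusted p under 0.01, and 2308 to 4352 with 1 library left out. The 10 genes had at least 344 reads in each library.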
